A study of Mus musculus with 10 samples.

Results

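The SLC25 family holds the carrier proteins that move metabolites across the inner membrane of mitochondria. Members were taken as the genes named Slc25a followed by a number whose mean over the 10 liver libraries was at least 0.5 FPKM (fragments per kilobase of transcript, scaled to the mapped fragments of the library). Slc25a1, Slc25a15 and Slc25a20 were left out by name. Of 47 genes so named among the 55401 in the table, 32 were members, 3 were left out by name and 12 lay under the minimum. The rule used level alone and no genotype. Just outside it lay Slc25a24 (0.466 FPKM) and Slc25a27 (0.485 FPKM), and just inside Slc25a14 (0.762 FPKM) and Slc25a29 (0.855 FPKM).

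The 10 mouse liver libraries carry the genotype labels NIKflox (5 libraries) and NIKhKO (5 libraries). The series' own text writes these NIKF/F and NIKHKO, and its title speaks of hepatic NIK, the kinase encoded by Map3k14. Both genotypes had 5% ethanol in the Lieber-DeCarli liquid diet for 4 weeks, so that no library shows a liver without ethanol. Not given in the sources used here are the strain, sex and age of the mice, the Cre driver and the deleted part of the gene. Whether litters or cages were shared is likewise not stated, so the p-values reflect the spread among these 10 libraries, which may be technical.

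Mitochondrial carriers share a fold built from repeats, and most of them exchange one small molecule for another across a membrane that is otherwise tight to charged metabolites. Through them ADP and phosphate reach ATP synthase, ATP leaves the matrix, amino acids and dicarboxylates move between cytosol and matrix, and cofactors made in the cytosol enter. In liver the aspartate-glutamate and oxoglutarate carriers complete the malate-aspartate shuttle, which carries the reducing power of cytosolic NADH, including that from ethanol oxidation, into mitochondria.

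Total estimated counts ran from 47161869 to 65052525 per library. Map3k14 read 0.606 ± 0.168 FPKM in NIKflox against 0.383 ± 0.0372 FPKM in NIKhKO (SD, n = 5 per genotype). Its libraries spanned 0.483 to 0.899 FPKM and 0.347 to 0.443 FPKM, and did not overlap. The 9 hepatocyte markers found summed to between 38987 and 53291 FPKM in every library. In a bulk sample, fewer cells of a type and less RNA per cell cannot be told apart. NIKflox 2 and NIKflox 4 stood apart in 12 heart muscle markers, which summed to 7.23 and 34.6 FPKM there and to 0.118 to 0.959 FPKM in the other 8 libraries. NIKflox 2 also held the most of 6 skeletal muscle markers (13.1 FPKM against at most 3.20 FPKM elsewhere) and of 6 adipose tissue markers (22.5 FPKM against at most 2.18 FPKM elsewhere). Values without both libraries are given below for Slc25a4, Slc25a12, Slc25a25, Slc25a30, Slc25a33, Slc25a45 and Slc25a47.

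No member of the family differed between the genotypes after adjustment. In edgeR's quasi-likelihood test 0 of 32 members were called at an adjusted p below 0.05, against 0.0236% of all 12730 genes tested (3 genes; 0.0157% higher and 0.00786% lower in NIKhKO). The lowest adjusted p among members was 0.35. At an unadjusted p below 0.05 there were 4 members (Slc25a4, Slc25a10, Slc25a33 and Slc25a45), or 12.5%, against 9.99% of all genes tested. The count turned on single libraries. It was 8 (25%) without NIKflox 4, against 9.05% of all genes, and 8 without NIKhKO 3, against 9.45% of all genes. It was 1 (3.12%) without NIKhKO 1, against 8.92% of all genes. It was 2 (6.25%) without NIKflox 1, against 9.40% of all genes, and 2 without NIKflox 2 and 4 together, against 8.22% of all genes. DESeq2, which called 1.63% of all genes, and limma on log2(FPKM + 1) also called 0 members, with 4 and 3 members at an unadjusted p below 0.05 (12.5% and 9.38%, against 10.83% and 10.79% of all genes). Log2 fold changes (NIKhKO minus NIKflox) were positive for 15 members and negative for 17. Their median was -0.04, and that of all genes tested was -0.01. Single members lay between -0.62 and 0.40.

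The data bound most of these differences. Approximate 95% intervals, from the standard error and a t distribution with 8 residual degrees of freedom, lay inside a 2-fold change in either direction for 26 of 32 members (81.2%, against 80.6% of all genes tested). For 19 of 32 members they lay inside a 1.5-fold change, against 6952 of all 12730 genes tested. The 6 members whose intervals reached past 2-fold were Slc25a4, Slc25a25, Slc25a29, Slc25a30, Slc25a33 and Slc25a47. All 6 intervals reached past it on the lower side.

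**Figure D1:**
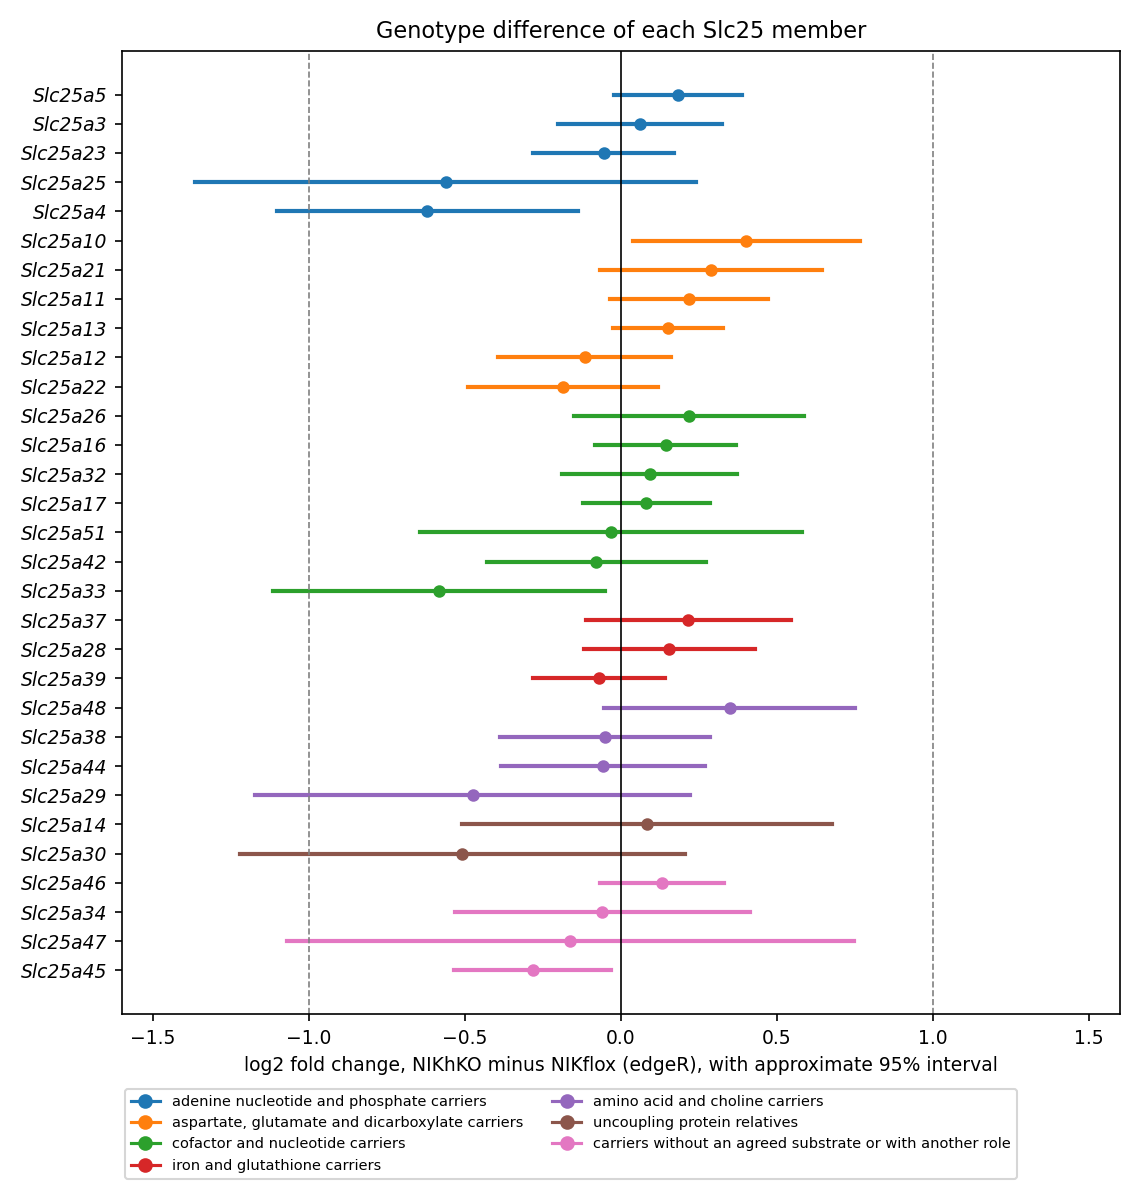
Log2 fold change of 31 members (points, horizontal axis, NIKhKO minus NIKflox) with its approximate 95% interval (lines), coloured by role; dashed lines mark a 2-fold change. Members lie on both sides of 0, from -0.62 for Slc25a4 to 0.40 for Slc25a10.

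Levels spread far more across the family than between genotypes. Slc25a5 (245 FPKM) and Slc25a47 (114 FPKM) averaged 100 FPKM or more, 13 members 10 to under 100 FPKM, 15 members 1 to under 10 FPKM, and Slc25a14 and Slc25a29 less than 1 FPKM. The highest mean was 321 times the lowest. The median member stood at 8.58 FPKM, and the median gene tested at 3.25 FPKM. Slc25a5 alone made up 28.8% of the summed FPKM of the family, and Slc25a47 13.5%. The family summed to 855 ± 146 FPKM in NIKflox against 841 ± 71.3 FPKM in NIKhKO (SD, n = 5 per genotype). The lowest sum, 699 FPKM, was in NIKflox 1 and the highest, 1096 FPKM, in NIKflox 4, so the NIKflox range enclosed the NIKhKO range.

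**Figure D2:**
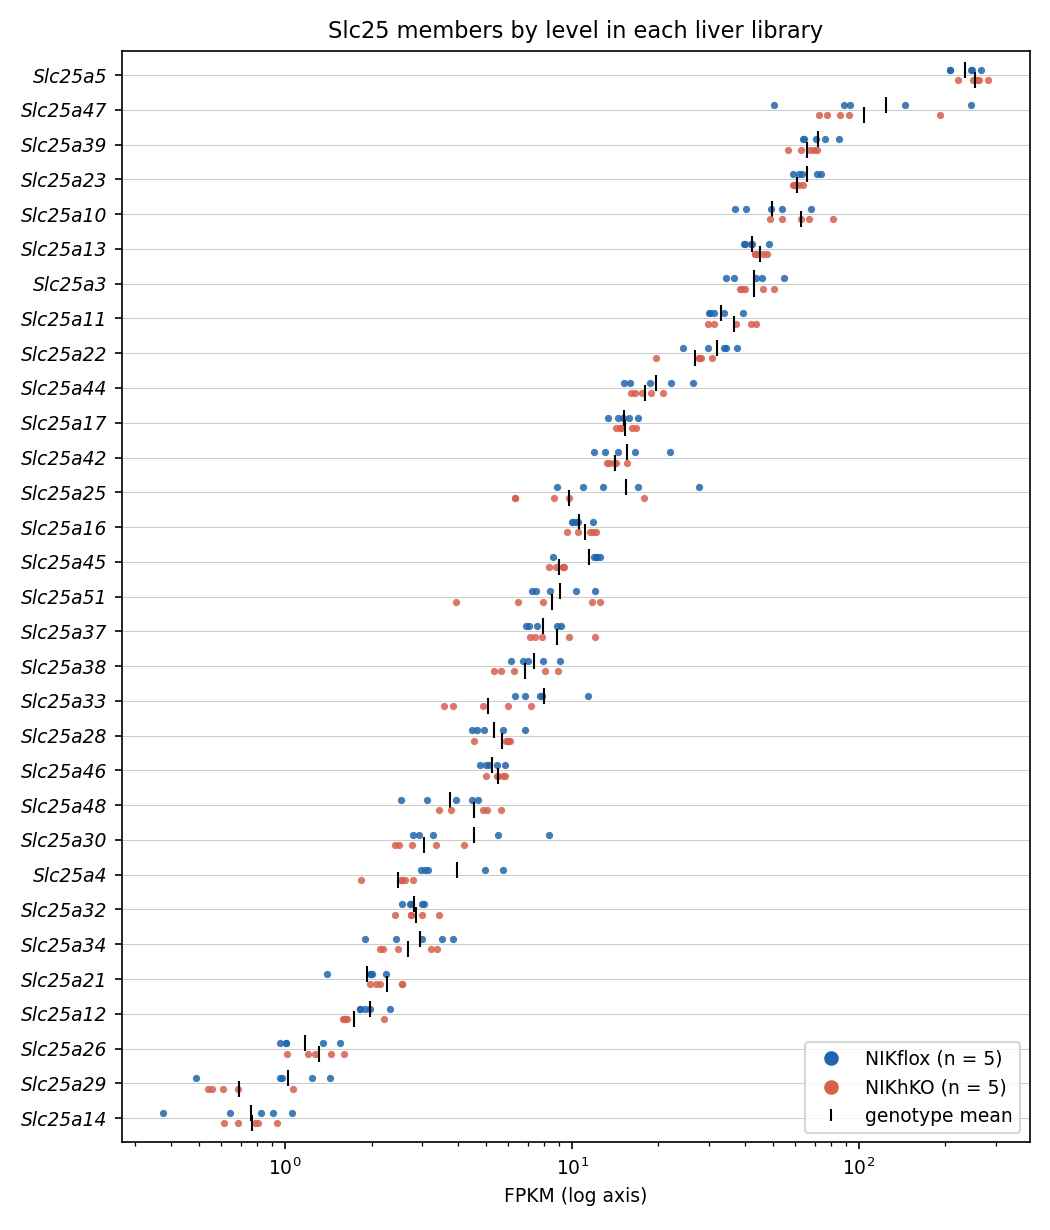
FPKM of 31 members in each library on a log axis, ordered by mean level, with NIKflox in blue, NIKhKO in red and genotype means as black ticks. The order runs from Slc25a14 at 0.762 FPKM to Slc25a5 at 245 FPKM, and the genotypes overlap for every member except Slc25a4.

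Several of the 12 family genes under the minimum have a close relative among the members. Slc25a41 and Slc25a54 had a count of 0 in all 10 libraries. Slc25a31, the translocase of germ cells, averaged 0.0263 FPKM, and Slc25a18, a second glutamate carrier, 0.0561 FPKM. Slc25a36, a pyrimidine nucleotide carrier like the member Slc25a33, averaged 0.330 FPKM. Slc25a40, a glutathione carrier like the member Slc25a39, averaged 0.346 FPKM. Slc25a2, Slc25a35, Slc25a43 and Slc25a53 averaged between 0.0207 FPKM (Slc25a43) and 0.461 FPKM (Slc25a35).

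The members lie on 17 chromosomes, read from the table and taken as GRCm38. Slc25a29 and Slc25a47 are neighbours on chromosome 12, on opposite strands, with gene boundaries 162 bases apart in the table. Slc25a29 lies at chr12:108825873-108835883, minus strand, and Slc25a47 at chr12:108836046-108856815, plus strand. The RefSeq start of Slc25a47 used here comes after chr12:108851128, inside its gene span and well away from Slc25a29. RefSeq promoters of build GRCm38.p6 were at hand for 25 of the 32 members, and 33 starts in all. Those without an entry included Slc25a26, Slc25a32, Slc25a37, Slc25a44, Slc25a46 and Slc25a51. Of 8 motifs searched on both strands in the 250 bases before each start, the GC box (GGGCGG) stood in 66.7% of member promoters, 32.7% of all 32851 promoters and 56.4% of the promoters of genes tested. An E-box (CACGTG) stood in 12.1% of member promoters, 6.02% of all and 8.4% of those of genes tested. An ETS motif (CCGGAAG) stood in 12.1%, 6.91% and 13.4%, and a half-site of the cyclic AMP response element (TGACG) in 24.2%, 17.8% and 26.5%. The full cyclic AMP response element (TGACGTCA, which holds that half-site on both strands) stood before 1 start of Slc25a25, in 3.03% of member promoters, 1.55% of all and 2.43% of those of genes tested. The NRF1 motif stood in 3.03%, 3.74% and 8.11%, the member being Slc25a3. The TATA box (TATAAA) stood in 3.03%, 12.4% and 6.86%, the member being Slc25a21. The estrogen-related receptor motif (TCAAGGTCA) stood in 0 of 33 member promoters, 0.387% of all and 0.258% of those of genes tested. Several members have more than 1 start, and overlapping windows share bases, so these shares are descriptions only.

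The windows of 4 members are shown because the results below turn on their levels or spread and because they hold no annotated exon. Slc25a5 is the most abundant member, Slc25a13 the one with the smallest spread between libraries, and Slc25a25 and Slc25a47 the members with the widest. Each runs 5′ to 3′ on the strand of the gene and ends at the base before the start, and capitals mark the motifs named above.
Slc25a5 (chrX:36795347-36795596, plus strand): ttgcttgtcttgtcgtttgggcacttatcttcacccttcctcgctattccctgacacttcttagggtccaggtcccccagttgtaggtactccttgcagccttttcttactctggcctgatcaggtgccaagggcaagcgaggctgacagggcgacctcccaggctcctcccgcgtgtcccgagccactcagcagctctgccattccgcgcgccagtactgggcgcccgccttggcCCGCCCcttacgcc
Slc25a13 (chr6:6217174-6217423, minus strand): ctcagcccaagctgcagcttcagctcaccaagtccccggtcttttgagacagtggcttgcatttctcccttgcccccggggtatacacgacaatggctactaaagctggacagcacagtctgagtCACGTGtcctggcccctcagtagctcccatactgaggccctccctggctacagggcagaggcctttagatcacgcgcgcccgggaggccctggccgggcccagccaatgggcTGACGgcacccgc
Slc25a25 (chr2:32424067-32424316, minus strand): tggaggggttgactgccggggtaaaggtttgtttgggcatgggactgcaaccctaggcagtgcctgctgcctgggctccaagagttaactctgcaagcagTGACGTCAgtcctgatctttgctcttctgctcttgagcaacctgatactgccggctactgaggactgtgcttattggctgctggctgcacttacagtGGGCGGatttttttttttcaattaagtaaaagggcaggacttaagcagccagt
Slc25a47 (chr12:108850879-108851128, plus strand): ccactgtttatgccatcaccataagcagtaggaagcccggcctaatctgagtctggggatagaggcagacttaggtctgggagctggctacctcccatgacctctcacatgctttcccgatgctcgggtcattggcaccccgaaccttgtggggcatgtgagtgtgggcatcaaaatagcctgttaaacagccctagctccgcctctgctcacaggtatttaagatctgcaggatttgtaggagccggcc
The window of Slc25a5 holds a GC box on the opposite strand, 14 to 9 bases before the start. That of Slc25a13 holds an E-box 125 to 120 bases and a TGACG 13 to 9 bases before the start. That of Slc25a25 belongs to the start, of 3 in RefSeq, that has the full cyclic AMP response element, 150 to 143 bases before it, with a GC box 53 to 48 bases before it. The window of Slc25a47 holds 0 of the 8 motifs.

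Adenine nucleotide and phosphate carriers supply ATP synthase with its substrates and export its product. The 5 members had log2 fold changes from -0.62 to 0.18, with 2 positive and 3 negative. Slc25a5, the adenine nucleotide translocase that predominates outside muscle, read 208, 207, 245, 267 and 247 FPKM in NIKflox 1 to 5 and 283, 258, 250, 221 and 262 FPKM in NIKhKO 1 to 5. NIKhKO 1 lay above all NIKflox libraries and the other NIKhKO libraries lay inside their range. The log2 fold change was 0.18 (SE 0.09, edgeR adjusted p = 0.54).

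Slc25a4, the translocase isoform of heart and skeletal muscle, was the member with the smallest p and the only one whose genotype ranges did not overlap. It read 3.06, 5.73, 3.15, 4.96 and 2.97 FPKM in NIKflox 1 to 5, and 1.84, 2.78, 2.56, 2.54 and 2.62 FPKM in NIKhKO 1 to 5. Every NIKflox library lay above every NIKhKO library, and NIKflox 2 and NIKflox 4 lay well above the other NIKflox libraries. Among all genes tested 2.19% had ranges that did not overlap, against 3.12% of members, so 1 such member is near the background (1.59% of all genes tested did not overlap and were lower in NIKhKO). The log2 fold change of Slc25a4 (chr8:46206797-46211284) was -0.62 (SE 0.21, edgeR unadjusted p = 0.013, adjusted p = 0.35).

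The 2 high NIKflox libraries of Slc25a4 were the same 2 that held heart muscle transcripts. Summed heart markers were 7.23 FPKM in NIKflox 2 and 34.6 FPKM in NIKflox 4, while Slc25a4 read 5.73 and 4.96 FPKM there. NIKflox 2 also held the most skeletal muscle and adipose tissue markers. Whether other tissue is linked to the Slc25a4 values was not tested. Of the 12 heart markers, Actc1 and Myl2 were listed at the floor of 1e-04 FPKM in the other 8 libraries. They read 2.90 and 0.655 FPKM in NIKflox 2 and 10.4 and 4.77 FPKM in NIKflox 4. Not every marker followed this pattern. Myl7 was at the floor in NIKflox 2, read 0.159 FPKM in NIKflox 4 and was highest in NIKhKO 5 (0.811 FPKM). Nppa and Sln were at the floor in NIKflox 2 and highest in NIKflox 4 (2.08 and 0.0373 FPKM). The summed list ran from 0.123 to 34.6 FPKM in NIKflox and from 0.118 to 0.959 FPKM in NIKhKO, where 4 of the 12 genes had a count of 0 in all 5 libraries. Without NIKflox 2 and 4 the log2 fold change of Slc25a4 was -0.26 (edgeR unadjusted p = 0.14, adjusted p = 0.74). NIKflox 1, 3 and 5, at 2.97 to 3.15 FPKM, still lay above all NIKhKO libraries.

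The balance of the 2 translocases can be read within a library, where scaling between libraries plays no role. Slc25a4 amounted to 1.48, 2.77, 1.28, 1.86 and 1.2% of Slc25a5 on the FPKM scale in NIKflox 1 to 5, and to 0.650, 1.08, 1.03, 1.15 and 1.0% in NIKhKO 1 to 5. The ratio was lower in every NIKhKO library than in every NIKflox library. The means were 1.72 ± 0.640% and 0.981 ± 0.193% (SD, n = 5 per genotype; exact two-sided permutation test of the mean log2 ratio over 252 arrangements, p = 0.0079, the smallest possible, and 0.040 adjusted over 5 ratios). Without NIKflox 2 and 4 the difference in mean log2 ratio went from -0.76 to -0.45, and the exact permutation p was 0.054 (adjusted p = 0.24). Fewer libraries leave fewer arrangements and raise the smallest possible p, so this p cannot be set against that of the full set. The ratios of NIKflox 1, 3 and 5 (1.2 to 1.48%) still lay above those of all NIKhKO libraries (0.650 to 1.15%). The adjusted p also rose above 0.05 when NIKhKO 1 (0.16), NIKhKO 2 (0.079), NIKhKO 3 (0.079) or NIKhKO 5 (0.12) was left out. The 5 ratios are those of listed pairs with both genes above the minimum, and their test was added after seeing the data.

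**Figure D3:**
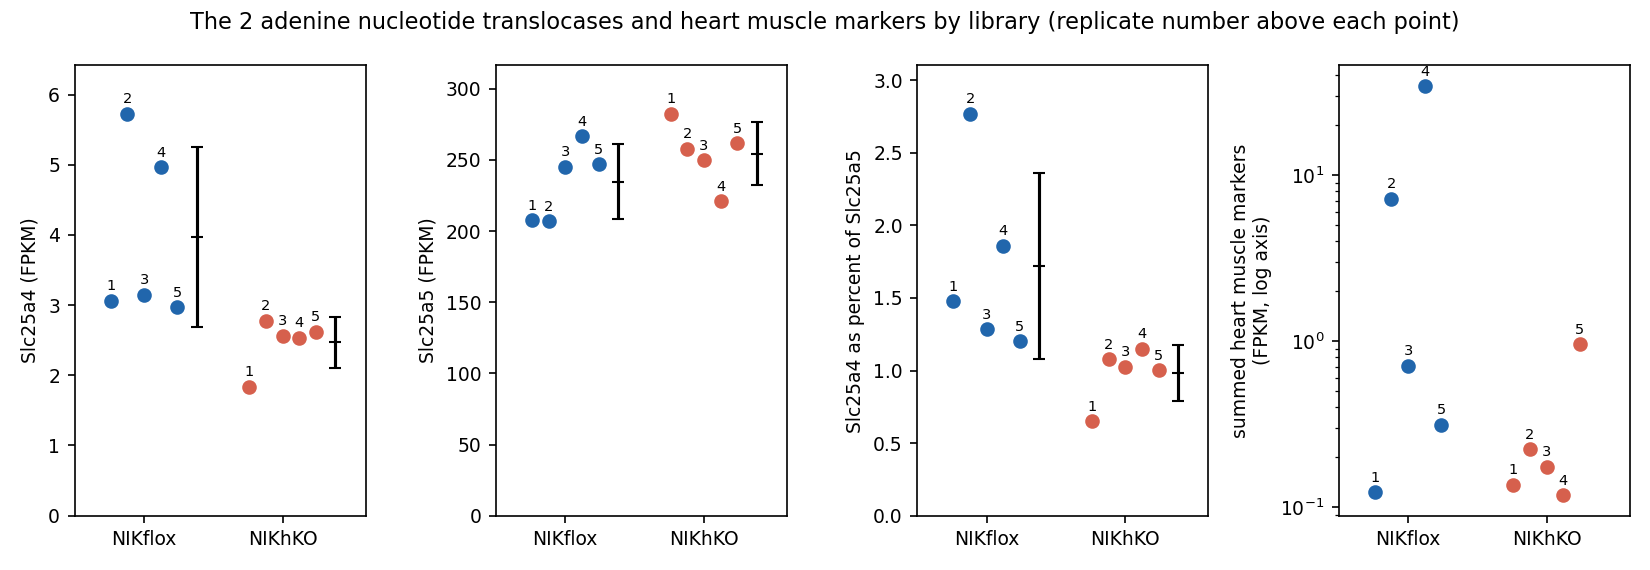
Slc25a4, Slc25a5, Slc25a4 as a percent of Slc25a5, and the sum of 12 heart muscle markers (log axis) in each library, with replicate numbers above the points and mean ± SD as black bars in the 3 panels on linear axes. NIKflox 2 and 4 are the highest NIKflox libraries in every panel but that of Slc25a5.

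The calcium-regulated ATP-Mg/phosphate carriers differed in how steady they were. Slc25a23 read 71.1, 73.5, 58.9, 61.9 and 63.1 FPKM in NIKflox 1 to 5 and 59.3, 61.5, 63.7, 60.0 and 58.8 FPKM in NIKhKO 1 to 5. Slc25a25 read 8.83, 10.9, 12.8, 27.7 and 16.9 FPKM in NIKflox 1 to 5 and 9.75, 6.34, 17.8, 8.68 and 6.34 FPKM in NIKhKO 1 to 5. The highest library was 1.25 times the lowest for Slc25a23 and 4.37 times for Slc25a25, with NIKflox 4 the highest Slc25a25 library and NIKhKO 3 the next. The log2 fold changes were -0.05 (SE 0.10, edgeR adjusted p = 0.91) for Slc25a23 and -0.56 (SE 0.35, edgeR adjusted p = 0.66) for Slc25a25. That of Slc25a25 depended on its 2 highest libraries: it was -0.27 (adjusted p = 0.86) without NIKflox 4, -0.33 (adjusted p = 0.87) without NIKflox 2 and 4, and -0.92 (adjusted p = 0.38) without NIKhKO 3. Slc25a25 was 24.1 ± 12.9% of Slc25a23 in NIKflox and 16.0 ± 7.14% in NIKhKO (SD, n = 5 per genotype; exact permutation p = 0.24, adjusted p = 0.30). Slc25a3, the phosphate carrier, read 43.1 ± 8.12 FPKM in NIKflox against 42.9 ± 5.25 FPKM in NIKhKO (SD, n = 5 per genotype).

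The aspartate, glutamate and dicarboxylate carriers include the mitochondrial steps of the malate-aspartate shuttle. Log2 fold changes were above 0 for 4 of 6 members and below 0 for 2 (median 0.18), and the intervals of all 6 lay inside a 2-fold change. Slc25a10, which exchanges malate or succinate for phosphate, read 40.5, 37.0, 53.8, 68.0 and 49.4 FPKM in NIKflox 1 to 5 and 80.9, 66.8, 54.1, 49.1 and 62.6 FPKM in NIKhKO 1 to 5. NIKflox 1 and 2 were lowest and NIKhKO 1 highest, and the other libraries overlapped. Its log2 fold change of 0.40 (SE 0.16, edgeR unadjusted p = 0.027, adjusted p = 0.43) was the most positive in the family. An antisense gene on the opposite strand, Gm11788, overlaps Slc25a10 at 0.990 FPKM on average, and the sources used here do not say whether counting used strand.

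Slc25a11, the oxoglutarate-malate carrier, followed a like order of libraries. It read 30.1, 30.1, 31.2, 39.4 and 34.0 FPKM in NIKflox 1 to 5 and 43.6, 41.9, 31.2, 29.8 and 37.3 FPKM in NIKhKO 1 to 5. NIKhKO 1 and 2 were highest here and for Slc25a10 among the NIKhKO libraries, and NIKflox 4 was highest among the NIKflox libraries for both. The log2 fold change of Slc25a11 was 0.22 (SE 0.11, edgeR adjusted p = 0.55). Slc25a10 stood at 1.5 ± 0.22 times Slc25a11 in NIKflox against 1.70 ± 0.10 times in NIKhKO (SD, n = 5 per genotype; exact permutation p = 0.11, adjusted p = 0.19).

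Slc25a13 (citrin), the aspartate-glutamate carrier of liver, was the steadiest member, with a within-genotype SD of 0.0853 on the log2 CPM scale, lower than in all but 1.67% of the genes tested. It read 40.1, 39.7, 42.3, 48.5 and 41.9 FPKM in NIKflox 1 to 5 and 46.1, 43.5, 47.8, 44.2 and 43.5 FPKM in NIKhKO 1 to 5. The NIKhKO libraries lay above the NIKflox libraries except NIKflox 4, with a log2 fold change of 0.15 (SE 0.08, edgeR adjusted p = 0.56). Slc25a12 (aralar), its counterpart in heart and brain, read 1.97 ± 0.206 FPKM in NIKflox against 1.73 ± 0.267 FPKM in NIKhKO (SD, n = 5 per genotype), with a log2 fold change of -0.12, and of -0.041 without NIKflox 2 and 4. Slc25a12 was 4.63 ± 0.258% of Slc25a13 in NIKflox and 3.86 ± 0.649% in NIKhKO (SD, n = 5 per genotype; exact permutation p = 0.048, adjusted p = 0.12). In NIKhKO 1, 2, 3 and 5 this ratio was 3.45, 3.72, 3.45 and 3.67%, under all NIKflox libraries (4.33 to 4.99%), and NIKhKO 4 stood at 5.00%. NIKflox 2 and 4 had the highest NIKflox ratios, and without them the difference in mean log2 ratio went from -0.28 to -0.22 (exact permutation p = 0.14, adjusted p = 0.24). This test too had fewer arrangements than that of the full set. Leaving out single libraries gave adjusted p values from 0.040, without NIKhKO 4, to 0.20.

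The remaining members of this group lay on both sides of 0. Slc25a21, the oxodicarboxylate carrier of lysine breakdown, read 1.98, 2.02, 2.25, 1.40 and 1.99 FPKM in NIKflox 1 to 5 and 1.98, 2.07, 2.14, 2.55 and 2.55 FPKM in NIKhKO 1 to 5. NIKflox 4, the highest library for 12 other members, was its lowest, and the log2 fold change was 0.29 (SE 0.15, edgeR adjusted p = 0.58) with it and 0.19 without it. Slc25a22, the glutamate carrier, read 32.0 ± 5.07 FPKM in NIKflox against 26.8 ± 4.22 FPKM in NIKhKO (SD, n = 5 per genotype), a log2 fold change of -0.19, and of -0.086 without NIKhKO 1, its lowest library.

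**Figure D4:**
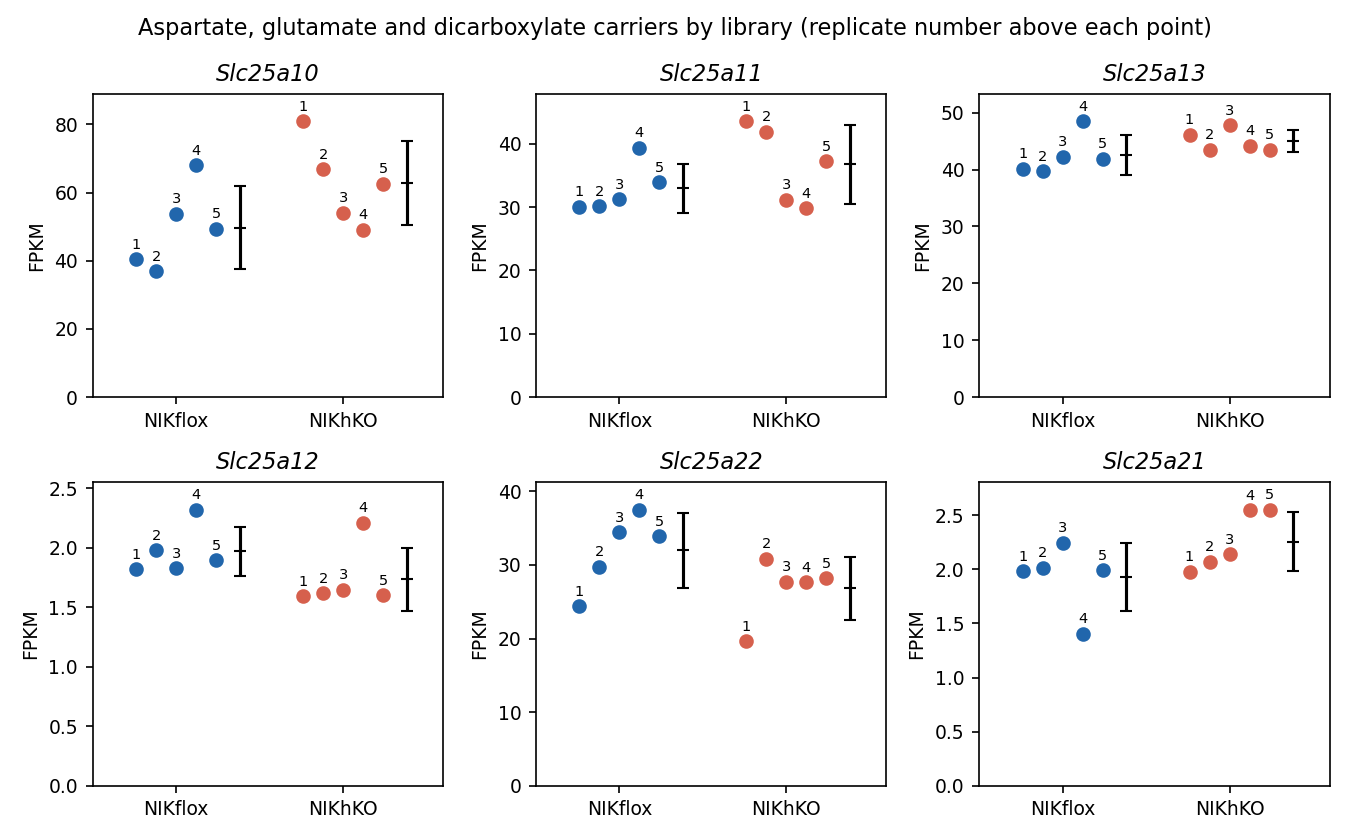
FPKM of the 6 aspartate, glutamate and dicarboxylate carriers in each library, with replicate numbers above the points and mean ± SD as black bars. The genotypes overlap in each panel, with NIKhKO 1 highest for Slc25a10 and Slc25a11 and lowest for Slc25a22.

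Carriers of cofactors and nucleotides move these molecules across the membrane of mitochondria or, for Slc25a17, of peroxisomes. Of 8 members 4 were positive and 4 negative, with a median of 0.03. Slc25a33, the pyrimidine nucleotide carrier that serves mitochondrial DNA and RNA synthesis, read 6.30, 11.3, 6.85, 7.84 and 7.74 FPKM in NIKflox 1 to 5 and 3.58, 4.88, 7.21, 3.84 and 5.96 FPKM in NIKhKO 1 to 5. Of the NIKhKO libraries, NIKhKO 3 alone reached into the NIKflox range. The log2 fold change was -0.58 (SE 0.23, edgeR unadjusted p = 0.028, adjusted p = 0.44). It was -0.39 (edgeR adjusted p = 0.74) without NIKflox 2 and 4, NIKflox 2 being its highest library, and -0.76 (edgeR adjusted p = 0.34) without NIKhKO 3.

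Of the other cofactor carriers, 6 had log2 fold changes between -0.08 and 0.22. Slc25a42, the coenzyme A carrier, read 22.0 FPKM in NIKflox 2 and 11.9 to 16.5 FPKM in the other NIKflox libraries, beside 14.1 ± 0.910 FPKM (SD, n = 5) in NIKhKO. Slc25a51, the NAD carrier, spread 3.19-fold over the libraries, with 8.50 ± 3.61 FPKM in NIKhKO and 9.07 ± 2.03 FPKM in NIKflox (SD, n = 5 per genotype), and its log2 fold change was -0.03. The carriers of S-adenosylmethionine (Slc25a26, log2 fold change 0.22) and folate or flavin (Slc25a32, 0.09), the peroxisomal Slc25a17 (0.08) and Slc25a16 (0.14), which is linked to coenzyme A, averaged between 1.24 FPKM (Slc25a26) and 15.2 FPKM (Slc25a17). Lrig1, on the opposite strand, overlaps Slc25a26 and was higher than it, at 4.5 FPKM on average, so the level of Slc25a26 is uncertain.

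The intervals of all 3 iron and glutathione carriers lay inside a 1.5-fold change, as did those of 6952 of all 12730 genes tested. Slc25a39, a carrier of glutathione, read 64.1, 64.0, 71.0, 85.4 and 76.4 FPKM in NIKflox 1 to 5 and 71.4, 67.5, 62.9, 56.5 and 69.7 FPKM in NIKhKO 1 to 5, with a log2 fold change of -0.07 (SE 0.09, edgeR adjusted p = 0.86). The mitoferrins, which import iron for haem and iron-sulfur clusters, read 7.91 ± 1.04 and 8.84 ± 2.04 FPKM for Slc25a37 and 5.34 ± 0.983 and 5.68 ± 0.642 FPKM for Slc25a28 (NIKflox first, SD, n = 5 per genotype). Slc25a28 stood at 67.7 ± 10.3% of Slc25a37 in NIKflox and 66.1 ± 11.7% in NIKhKO (SD, n = 5 per genotype; exact permutation p = 0.79, adjusted p = 0.79). Slc25a37 is also abundant in red cell precursors, and the 9 erythroid markers found summed to 408 to 642 FPKM in NIKflox and 341 to 723 FPKM in NIKhKO.

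Among amino acid and choline carriers 1 member was positive and 3 negative. Slc25a48, which takes up choline, read 3.11, 2.53, 4.49, 4.69 and 3.95 FPKM in NIKflox 1 to 5 and 5.67, 5.06, 3.44, 3.79 and 4.88 FPKM in NIKhKO 1 to 5. NIKhKO 1, 2 and 5 lay above all NIKflox libraries, while NIKhKO 3 and 4 lay inside their range, and the log2 fold change was 0.35 (SE 0.17, edgeR adjusted p = 0.55). Slc25a29, the carrier of basic amino acids, read 1.24, 0.489, 0.963, 1.43 and 0.972 FPKM in NIKflox 1 to 5 and 0.539, 0.558, 1.06, 0.610 and 0.683 FPKM in NIKhKO 1 to 5. NIKflox 2 was its lowest library and NIKflox 4 its highest, and the log2 fold change was -0.47 (SE 0.30, edgeR adjusted p = 0.67), on counts of 86 to 270 per library. Slc25a44, the carrier of branched-chain amino acids, read 19.7 ± 4.64 and 17.9 ± 1.88 FPKM and Slc25a38, the glycine carrier of haem synthesis, 7.39 ± 1.16 and 6.85 ± 1.56 FPKM (NIKflox first, SD, n = 5 per genotype).

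The relatives of the uncoupling proteins were Slc25a14 and Slc25a30. Slc25a30 read 3.26, 8.29, 2.79, 5.50 and 2.92 FPKM in NIKflox 1 to 5 and 3.37, 2.49, 4.21, 2.76 and 2.41 FPKM in NIKhKO 1 to 5. NIKflox 2 and 4, the libraries with heart muscle transcripts, were its 2 highest, for a reason that was not tested. Its log2 fold change was -0.51 (SE 0.31, edgeR adjusted p = 0.65), and 0.08 (adjusted p = 0.96) without those 2 libraries. Slc25a14 read 0.761 ± 0.262 FPKM in NIKflox against 0.764 ± 0.124 FPKM in NIKhKO (SD, n = 5 per genotype).

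Of the carriers without an agreed substrate or with another role, Slc25a45 showed the clearest separation. It read 12.1, 8.59, 12.2, 11.9 and 12.5 FPKM in NIKflox 1 to 5 and 8.32, 9.32, 9.26, 9.37 and 8.75 FPKM in NIKhKO 1 to 5. The NIKflox libraries other than NIKflox 2 lay above all NIKhKO libraries, and NIKflox 2 lay among them. The log2 fold change was -0.28 (SE 0.11, edgeR unadjusted p = 0.025, adjusted p = 0.42). Without NIKflox 2 it was -0.36 (adjusted p = 0.22), and without NIKflox 2 and 4 it was -0.39 (adjusted p = 0.37), so that it was not called either way.

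Slc25a47, a carrier made mainly by hepatocytes, had the widest spread between libraries of the same genotype. It read 50.3, 144, 88.8, 246 and 93.1 FPKM in NIKflox 1 to 5 and 85.9, 92.5, 192, 72.2 and 77.3 FPKM in NIKhKO 1 to 5. NIKflox 4 and NIKhKO 3 were highest, NIKflox 1 was lowest, and the highest library was 4.89 times the lowest. The log2 fold change was -0.16 (SE 0.39, edgeR adjusted p = 0.94), with an interval from -1.07 to 0.75. It was 0.21 without NIKflox 4 and 0.49 without NIKflox 2 and 4. Slc25a46, an outer membrane protein with a role in mitochondrial shape, read 5.25 ± 0.425 and 5.50 ± 0.323 FPKM, and Slc25a34 2.94 ± 0.798 and 2.68 ± 0.588 FPKM (NIKflox first, SD, n = 5 per genotype).

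For most of the family, as for most genes tested, the spread between livers of a genotype exceeded the difference between genotypes. The genotype difference in mean log2 CPM was larger than the within-genotype SD for 10 of 32 members. That is a larger share than the 22.8% of all genes tested, and the gap between the shares was not tested. The within-genotype SD had a median of 0.24 over members and 0.26 over all genes tested. It was widest for Slc25a47 (0.71), Slc25a25 (0.62) and Slc25a30 (0.54), and NIKflox 4 was high for all 3. On the FPKM scale NIKflox 4 was the highest of the 10 libraries for 12 of 32 members (37.5%), and for 24.1% of all genes tested. After TMM scaling these shares were 25% (8 members) and 13.8%. NIKflox 2 was the lowest library for 9 members (28.1%) on the FPKM scale, and for 11.3% of all genes tested.

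**Figure D5:**
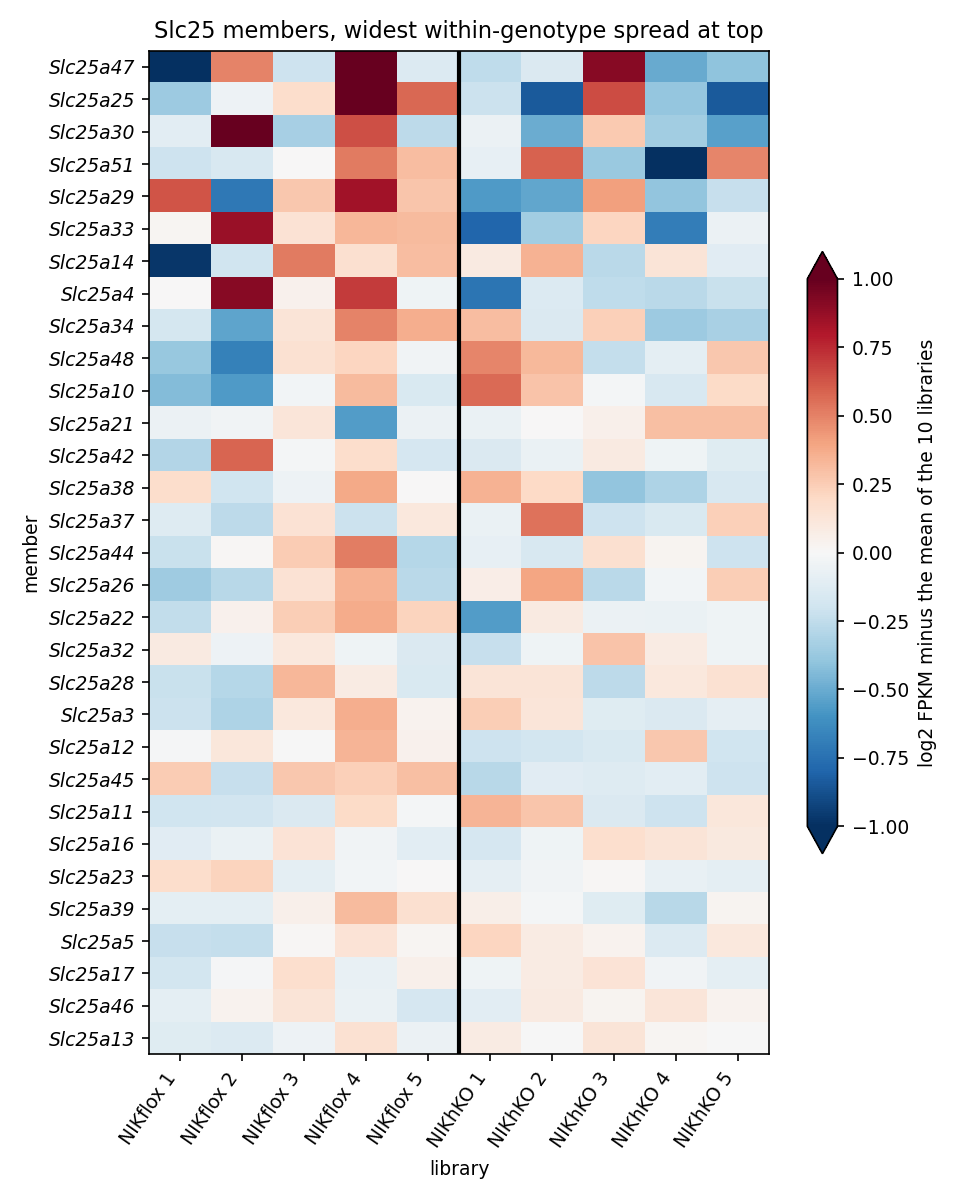
Log2 FPKM of 31 members in each library minus the mean over the 10 libraries, red above and blue below (colours end at 1 and -1), with members ordered by within-genotype spread and a line between the genotypes. Slc25a47 and Slc25a25 are high in NIKflox 4 and NIKhKO 3, and Slc25a4, Slc25a30 and Slc25a33 are high in NIKflox 2.

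Other genes of mitochondrial transport were read from 10 lists of 53 genes, 48 of which were tested. In edgeR 0 of 48 were called (0 also in DESeq2 and limma), against 0.0236% of all genes tested. At an unadjusted p below 0.05 there were 8 (16.7%, against 9.99% of all genes tested). Log2 fold changes were positive for 28 and negative for 20, with a median of 0.06. The ranges of 1 gene did not overlap (2.08%, against 2.19% of all genes tested). That gene was Got2, the mitochondrial aspartate aminotransferase of the malate-aspartate shuttle. It read 107, 118, 118, 124 and 120 FPKM in NIKflox 1 to 5 and 125, 126, 136, 131 and 129 FPKM in NIKhKO 1 to 5, a log2 fold change of 0.21 (SE 0.08, edgeR adjusted p = 0.38).

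The other shuttle enzymes did not share its sign throughout. Of 6 NADH shuttle enzymes 2 were positive and 4 negative. Cytosolic malate dehydrogenase, Mdh1, spanned 106 to 162 FPKM in NIKflox and 96.8 to 123 FPKM in NIKhKO (log2 fold change -0.22). Its mitochondrial counterpart Mdh2 read 53.3 ± 6.74 and 53.5 ± 4.31 FPKM (NIKflox first, SD, n = 5 per genotype). The glycerol phosphate shuttle enzyme Gpd1 read 185 ± 39.5 and 153 ± 32.5 FPKM. Regulators of mitochondrial biogenesis (6 of 8 positive, median 0.09) had their smallest p in Pprc1, a coactivator of the PGC-1 family, at 1.84 ± 0.453 and 1.18 ± 0.256 FPKM (log2 fold change -0.57, edgeR adjusted p = 0.36). The other coactivators of that family in the list had positive values, neither of them called. Their log2 fold changes were 0.67 for Ppargc1b (edgeR adjusted p = 0.44) and 0.18 for Ppargc1a (edgeR adjusted p = 0.82). Ppargc1b averaged 0.549 FPKM, close to the minimum of 0.5 FPKM, on counts of 74 to 264 per library. The interval of Ppargc1a ran from -0.26 to 0.63.

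Outer membrane channels were positive in 3 of 3 genes, with a median of 0.16, and Vdac2 had the smallest p (11.3 ± 0.321 and 12.3 ± 1.09 FPKM, log2 fold change 0.20, edgeR adjusted p = 0.50). Carrier import machinery (Tomm and Timm genes) was positive in 5 of 12 genes, with a median of -0.01 and Timm10b leading (log2 fold change -0.23, edgeR adjusted p = 0.55). Calcium uniporter genes were positive in 5 of 6, led by Micu2 (0.27, edgeR adjusted p = 0.46), and sideroflexins in 2 of 4, led by Sfxn5 (0.23, edgeR adjusted p = 0.46). Of the pyruvate carrier subunits Mpc1 had the smaller p (log2 fold change -0.20, edgeR adjusted p = 0.78). Mtch1, of the 2 outer membrane relatives of the carriers, stood at 0.29 (edgeR adjusted p = 0.42). Ucp2, the uncoupling protein above the minimum, stood at 0.25 (edgeR adjusted p = 0.68). Of 4 mitochondrial ABC transporters 2 were positive and 2 negative, with Abcb6 at -0.38 (edgeR adjusted p = 0.42).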

How the data were processed

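Per the file headers, the authors gave each gene an FPKM value and an estimated count in each library. StringTie 1.3.4d, HISAT2 2.0.4, cutadapt 1.9 and edgeR are the tools in the submitters' processing notes, with no role or order, which also name the build hg38, although the gene identifiers are mouse. Of 55401 genes 51957 (93.8%) had the start and end of GENCODE M21, so coordinates are read as GRCm38. The deposited estimated counts pile up at 4 (on average 907 genes per library at 4, 330.5 at 3 and 175.8 at 5). Totals may therefore overstate depth, which was not tested. Libraries were prepared with oligo(dT) beads, per the labels.

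Genes with a mean of at least 0.5 FPKM (12730) were tested with edgeR 4.0.16 in R 4.3.3 (quasi-likelihood, TMM, two-sided, Benjamini-Hochberg over all genes). Paralog ratios were compared with exact permutation tests. Alternatives used limma 3.58.1 and DESeq2 1.42.0. Intervals cover these libraries only. Members and lists were chosen with earlier results of these data known. Values in every library were given for the 12 members with the smallest p, the 6 most abundant and those not overlapping. Of each list, genes called or not overlapping were named, otherwise the 1 with the smallest p. The family counts and medians include 1 member whose own values are not reported here. Other genes named were chosen after their values were seen.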

Additional observations from a re-analysis of the deposited data

Results flagged for a closer look

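In 7 of 62 groups of 5 libraries examined for the members (11.3%), and in 0 of 20 for the named transport genes, 1 library lay far from the other 4. The rule marks about 1 in 20 groups by chance only where values are normally distributed and groups are independent. These groups share the same libraries, and the share over all genes tested was not computed. The 11.3% is therefore not read as an excess. NIKhKO 3 was highest for Slc25a47 (192 FPKM against 72.2 to 92.5 FPKM) and Slc25a29 (1.06 FPKM against 0.539 to 0.683 FPKM), and lowest for Slc25a28 (4.54 FPKM against 5.87 to 6.08 FPKM). Slc25a47 and Slc25a29, neighbours on chromosome 12, were also both highest of all in NIKflox 4, but parted elsewhere. In NIKflox 1 Slc25a47 was lowest (50.3 FPKM) and Slc25a29 read 1.24 FPKM. In NIKflox 2 Slc25a29 was lowest (0.489 FPKM) and Slc25a47 read 144 FPKM. NIKhKO 1 was lowest for Slc25a4 (1.84 FPKM against 2.54 to 2.78 FPKM) and Slc25a22 (19.6 FPKM against 27.7 to 30.8 FPKM). NIKhKO 4 was highest for Slc25a12 (2.21 FPKM against 1.59 to 1.65 FPKM). NIKflox 2 was lowest for Slc25a45 (8.59 FPKM against 11.9 to 12.5 FPKM).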

How the results depend on the processing

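The count of 0 members called held under all 23 alternatives, and of 711 values of 31 members 688 kept their sign and 23 changed it. Over all genes the count of 3 calls became 0 with limma at either pseudocount (1374 and 1364 genes at an unadjusted p below 0.05 with 1 and 0.1), 207 with DESeq2, 5 with voom weights, 6 with robust shrinkage, 1 without NIKflox 2 and 4, and 0 to 24 without single libraries (24 without NIKhKO 4); the cause was not tested. The members' median ran from -0.11 to 0.06. Same-numbered libraries did not deviate together (correlations -0.25 to 0.05, 0 of 5 best with their own number); the replicate block gave 2 calls, and 0 members. Without NIKflox 2 and 4, Slc25a42 changed sign to 0.15, Slc25a30 to 0.081, Slc25a51 to 0.020, Slc25a47 to 0.49, Slc25a44 to 0.076 and the log2 ratio of Slc25a28 over Slc25a37 to 0.035; voom took Slc25a42 to 0.0085. Leaving out single libraries gave ranges across 0 for Slc25a14 (-0.077 to 0.23), Slc25a42 (-0.15 to 0.089), Slc25a3 (-0.0026 to 0.15), Slc25a38 (-0.16 to 0.019), Slc25a34 (-0.18 to 0.042), Slc25a51 (-0.19 to 0.15), Slc25a47 (-0.54 to 0.21), Slc25a44 (-0.13 to 0.055), Slc25a32 (-0.0014 to 0.16) and the log2 ratio of Slc25a28 over Slc25a37 (-0.11 to 0.056). That of Slc25a4 over Slc25a5 stayed between -0.88 and -0.58. The ratios and their alternatives were chosen after seeing the data. Members at low counts, such as Slc25a14 (46 to 159), are the least precise.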
